A study of Mus musculus with 12 samples.

Results

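The earliest response of the mouse blastocyst to inhibition of p38-MAPK was read from 4 mRNA-Seq libraries, 2 from blastocysts kept for 4 h with the p38-MAPK inhibitor SB220025 (p38-MAPKi) and 2 from blastocysts kept for the same 4 h with its solvent, dimethyl sulfoxide (DMSO, control). A gene was taken as measured when its value was at least 1 RPKM (read density along the transcript, corrected for library size) in at least 2 of these 4 libraries, and 10781 of the 34245 genes in the table were. Each library was made from a pool of 30 blastocysts, and the pools of a group were biological duplicates, so only 2 pools stood on each side of the comparison. The whole series held 12 libraries, with the same pair of conditions also collected after 7 h and 10 h.

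The embryos of both groups were of one kind. F1 (C57Bl6 x CBA/W) females were superovulated and mated with F1 males, and their embryos were flushed as 2-cell embryos at E1.5, grown in KSOM with amino acids until E3.5, and then divided between 20 µM SB220025 and DMSO alone. The inhibitor was in the medium, so the whole embryo was exposed, but its reach into each cell was not measured in these libraries. A single compound at a single dose was used. The pools were whole blastocysts of unrecorded sex, with the trophectoderm and the inner cell mass together. In such pools, fewer cells of a type and less RNA per cell cannot be told apart, and since no RNA was spiked in, a level can be read only relative to the other RNA of its pool.

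p38-MAPK is a family of stress-activated protein kinases that are switched on by upstream kinases and pass the signal on to downstream kinases, to transcription factors, and to proteins that decide how long an mRNA lives. Its best known inputs are cellular stress and inflammatory signals, and it also acts in the early embryo. In the blastocyst, an outer epithelium called the trophectoderm (TE) pumps fluid into a cavity, while the inner cell mass sorts into the epiblast (EPI) and the primitive endoderm (PrE).

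The control libraries held 17097675 and 18262011 reads and the p38-MAPKi libraries 24337846 and 21618041, so the treated libraries were the deeper ones. Markers of the blastocyst lineages were abundant in all 4 libraries (Krt18 of the TE lay between 909 and 1079 RPKM and Pou5f1 of the EPI between 350 and 480 RPKM), whereas none of 17 markers of blood, stroma, follicle, or oviduct was measured, and their summed level was 1.18 and 1.64 RPKM in the control and 2.25 and 2.99 RPKM after p38-MAPKi. Control replicate 1 stood apart in RNA that is not typical mRNA: Gm42418, a gene model that overlaps ribosomal RNA sequence, held 25354 RPKM there and from 3143 to 4115 RPKM in the other 3 libraries. Between p38-MAPKi replicates, the difference followed gene length, as described with the ribosomal genes.

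Of the 10781 genes, 98 (0.909%) were called different after 4 h of p38-MAPKi, that is, had a Benjamini-Hochberg adjusted p under 0.05 in limma. Higher after p38-MAPKi were 67 genes (0.621%), by between 0.72 and 2.91 on the log2 scale, and lower were 31 genes (0.288%), by between 0.72 and 3.07. Predicted genes or clone names made up 10 of the higher and 11 of the lower genes. Among the higher genes with a known function were targets of p53, enzymes of cholesterol and fatty acid synthesis, and transcription factors of the stress response, and among the lower genes were targets of the Hippo effector YAP, Myc, Id2, and Xist. The 2 treated libraries lay above both controls for 2885 genes (26.8%) and below both for 1472 (13.7%), and a limma p under 0.05 before adjustment was reached by 689 genes on the higher side (6.39%) and 327 on the lower (3.03%). These shares are the background against which each gene list is given.

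The number of calls rested on few libraries. In limma, each gene was judged by the spread usual at its expression level, whatever its own replicates did, and 11 genes were called when this dependence on level was dropped. The number was 6 without control replicate 1, 48 without control replicate 2, 412 without p38-MAPKi replicate 1, and 89 without p38-MAPKi replicate 2. No gene was called when the libraries were centred on their medians (1070 genes with an unadjusted p under 0.05), when the trend on gene length was removed (1135), without the filter on expression (7469), or with all 12 libraries in one fit (1211). A call below is therefore a statement about the size of a difference relative to the typical spread, and the values of the 4 libraries are given with it.

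**Figure D1:**
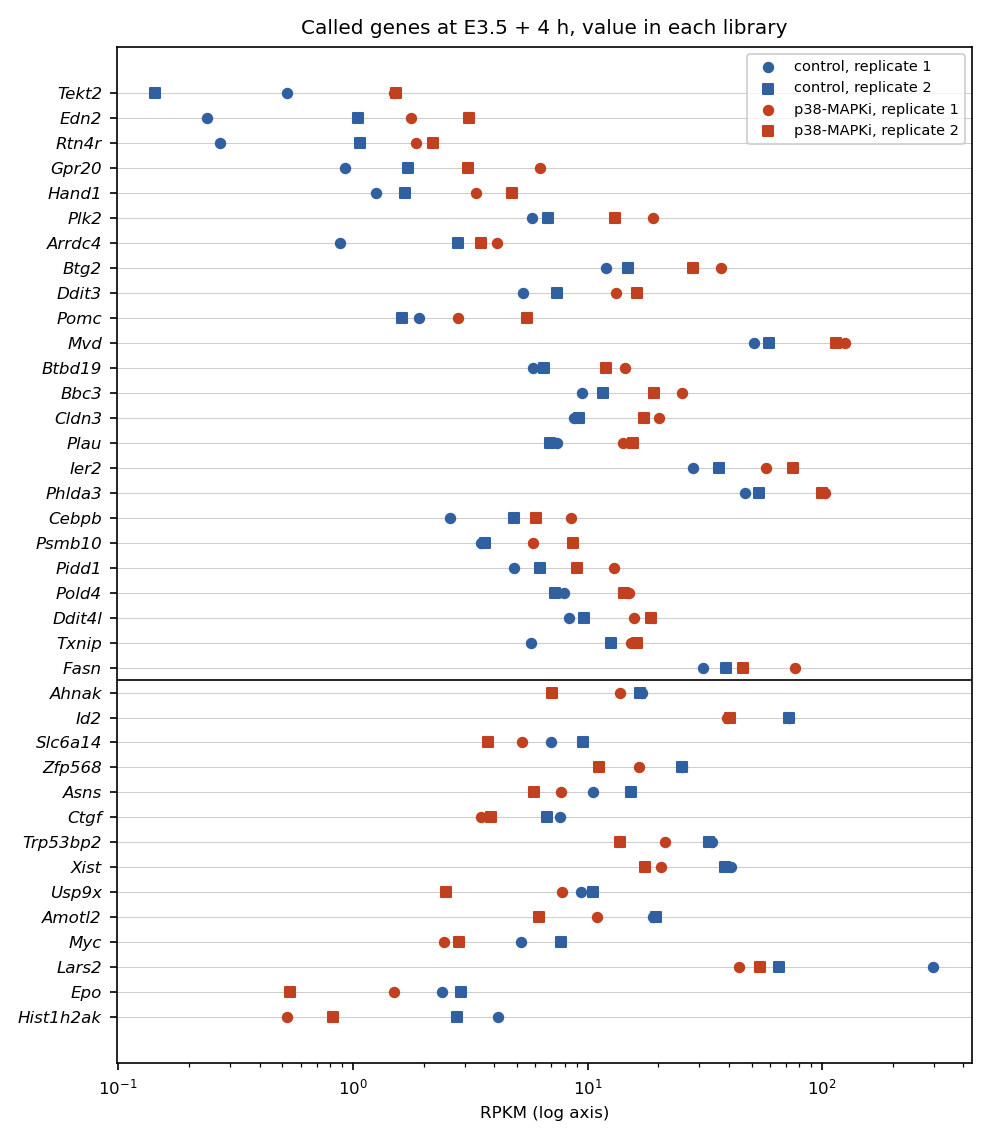
RPKM on a log axis in each of the 4 libraries at E3.5 + 4 h for called genes chosen by the naming rule whose libraries did not overlap (blue, control; red, p38-MAPKi; circles and squares, replicates 1 and 2), with genes higher after p38-MAPKi above the line and genes lower after p38-MAPKi below it. Plk2 held 5.80 and 6.79 RPKM in the control and 18.96 and 13.1 RPKM after p38-MAPKi, and Lars2 shows a control replicate 1 (297 RPKM) far from the other 3 libraries.

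The mRNA of the kinase and its pathway was examined first, although an inhibitor of enzyme activity leaves the mRNA of its target as no check of the treatment. Mapk14, which encodes p38-alpha, held 23.6 and 24.8 RPKM in the control and 26.8 and 24.0 RPKM after p38-MAPKi, and the groups overlapped. Mapk13, which encodes p38-delta, held 11.1 and 11.8 RPKM in the control and 10.98 and 15.3 RPKM after p38-MAPKi, again overlapping. Mapk11, for p38-beta, was near the limit, at 1.03 to 1.84 RPKM. None of the 23 measured genes of the cascade was called (25 were in the table), and their median log2 fold change was 0.09 against 0.07 for all genes. Among them, Map2k3, an upstream kinase, was not called but lay above both controls in both treated libraries (25.8 and 31.4 against 35.4 and 35.6 RPKM). On the other side, Atf2, a transcription factor phosphorylated by p38, held 5.05 and 5.46 RPKM in the control and 3.62 and 3.03 RPKM after p38-MAPKi (log2 fold change -0.66, SE 0.27, limma adjusted p = 0.325). Zfp36l1, whose protein shortens the life of mRNAs, lay between 4.89 and 5.14 RPKM in 3 libraries and at 2.26 RPKM in p38-MAPKi replicate 2.

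Among the called genes on the higher side were 5 targets of p53. p53 is a transcription factor that answers to DNA damage and other stress by inducing genes for cell cycle arrest, repair, and cell death. Of 28 listed targets 27 were measured, 5 of them were called, all higher, and in 21 both treated libraries lay above both controls (77.8%, against 26.8% of all genes), while in none did they lie below. The median log2 fold change of the list was 0.42, and it stayed between 0.29 (without p38-MAPKi replicate 1) and 0.58 (without p38-MAPKi replicate 2) when single libraries were left out and was 0.35 with the length trend removed. Trp53, the gene of p53 itself, is on the list too, and its level overlapped between the groups, with 17.3 and 20.0 RPKM in the control and 18.0 and 15.98 RPKM after p38-MAPKi.

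Plk2, a polo-like kinase of the p53 response, rose 2.51-fold, from 5.80 and 6.79 RPKM to 18.96 and 13.1 RPKM (log2 fold change 1.33, SE 0.22, limma adjusted p = 4.02e-06). Btg2, an antiproliferative factor that also promotes mRNA deadenylation, rose 2.41-fold, from 11.96 and 14.9 RPKM to 36.9 and 28.1 RPKM (log2 fold change 1.27, SE 0.21, limma adjusted p = 2.4e-06). In both genes p38-MAPKi replicate 1 was the highest library, and the lower treated library was still well above either control. Bbc3, which encodes the cell death inducer PUMA, held 9.45 and 11.7 RPKM in the control and 25.2 and 19.2 RPKM after p38-MAPKi (log2 fold change 1.07, SE 0.21, limma adjusted p = 0.000268). Phlda3, a p53-induced repressor of AKT, was the most abundant of the called targets and rose with little spread, from 47.0 and 53.7 RPKM to 102 and 99.6 RPKM (log2 fold change 1.01, limma adjusted p = 0.000234). Pidd1, the scaffold of a caspase-2 activating complex, held 4.84 and 6.29 RPKM in the control and 12.9 and 8.98 RPKM after p38-MAPKi (log2 fold change 0.97, limma adjusted p = 0.00772).

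The targets that were not called lay mostly on the same side. Gdf15, a secreted stress cytokine, had the largest difference of the list at a low level, with 0.632 and 0.503 RPKM in the control and 2.40 and 1.499 RPKM after p38-MAPKi (log2 fold change 1.75, SE 0.52, limma adjusted p = 0.0612). Cdkn1a, the gene of the cell cycle inhibitor p21, held 62.6 and 70.4 RPKM in the control and 93.9 and 98.9 RPKM after p38-MAPKi (log2 fold change 0.54, limma adjusted p = 0.226). Mdm2, the ubiquitin ligase of p53, held 19.3 and 21.4 against 32.0 and 24.4 RPKM, also without overlap. The genes of the BCL2 family and of apoptosis, a partly shared list, had 18 measured members with 1 call, that of Bbc3. In 10 members (55.6%, against 26.8% of all genes) both treated libraries lay above the controls, and in 2 below. Among the 10 were Bok (13.9 and 18.8 against 23.2 and 28.8 RPKM) and Bad (18.5 and 20.8 against 27.4 and 31.6 RPKM).

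The promoters of Btg2 and Plk2 are shown because they share a sequence element. Windows of 300 bases, from 250 before to 50 after the first base of a transcript, were taken from RefSeq on GRCm38.p6 for 49 of the 67 higher and 15 of the 31 lower genes, some with more than 1 start. The cAMP response element (CRE), written TGACGTCA and the same on both strands, is known as a binding sequence of CREB and ATF factors. It stood in 5 of 57 windows of higher genes (8.77%), in 0 of 19 windows of lower genes, and in 345 of 10363 windows of measured genes (3.33%). The AP-1 element TGANTCA stood in 7.02% of the windows of higher genes and 4.42% of those of measured genes. The 5 windows with a CRE were those of Btg2, Plk2, Rcan1, Mcam, and Cdkn2b, of which the last 3 were named after their values were seen. The CRE, in capitals, began 166 bases before the start of Btg2 (chr1:134079106-134079405, minus strand) and 62 bases before that of Plk2 (chr13:110394794-110395093, plus strand), and a match of letters is no measurement of binding.
Btg2: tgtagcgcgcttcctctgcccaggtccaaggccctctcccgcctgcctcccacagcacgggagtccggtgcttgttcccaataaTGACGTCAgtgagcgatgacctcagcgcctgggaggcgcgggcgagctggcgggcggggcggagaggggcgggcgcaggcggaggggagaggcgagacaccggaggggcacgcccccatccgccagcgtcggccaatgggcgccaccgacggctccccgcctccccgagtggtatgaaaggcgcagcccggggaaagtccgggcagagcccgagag
Plk2: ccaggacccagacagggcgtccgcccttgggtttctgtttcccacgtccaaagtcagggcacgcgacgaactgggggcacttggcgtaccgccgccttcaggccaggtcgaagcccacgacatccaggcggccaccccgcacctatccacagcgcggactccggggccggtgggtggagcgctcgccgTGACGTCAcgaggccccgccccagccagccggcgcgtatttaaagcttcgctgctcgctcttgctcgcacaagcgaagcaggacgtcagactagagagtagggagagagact

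Most measured genes of sterol synthesis also lay on the higher side. Cells make cholesterol from acetyl-CoA through the mevalonate pathway, and its genes are driven together by SREBP2, which is released when sterols run low. Of 25 genes 24 were measured, 2 were called, both higher, and in 21 both treated libraries lay above both controls (87.5%), with none below. The list had a median log2 fold change of 0.57, which was 0.51 with the length trend removed, 0.37 without p38-MAPKi replicate 1, and 0.70 without p38-MAPKi replicate 2. An unadjusted limma p under 0.05 on the higher side was reached by 17 of the 24.

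Mvd, the decarboxylase that closes the mevalonate part of the pathway, rose 2.17-fold, from 51.5 and 59.3 RPKM to 126 and 114 RPKM (log2 fold change 1.12, SE 0.20, limma adjusted p = 2.03e-05). Both treated libraries were near each other and far above the controls. Among the genes just short of a call were Mvk, the kinase of mevalonate (27.6 and 31.7 against 49.2 and 47.4 RPKM, limma adjusted p = 0.0508), and Msmo1, an oxidase of methyl sterols (24.4 and 25.9 against 41.3 and 40.5 RPKM, limma adjusted p = 0.0550). Insig1, the sterol-sensing retention factor of the same programme, held 63.2 and 70.4 RPKM in the control and 136 and 84.7 RPKM after p38-MAPKi, without a call. Libraries overlapped for Srebf2, the gene of SREBP2 (50.8 and 57.5 against 72.0 and 50.9 RPKM), and for Stard4, a sterol carrier.

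Fatty acid synthesis, which is driven by the related SREBP1, showed a smaller difference. In all 10 genes, each of them measured, the log2 fold change was above 0, as it was in 6472 of the 10781 genes. Both treated libraries lay above both controls in 5 (50%, against 26.8% of all genes) and below in 0. The median of the list was 0.29, 0.15 without p38-MAPKi replicate 1, and 0.65 without p38-MAPKi replicate 2. Fasn, the fatty acid synthase, was the called member, with 31.2 and 38.8 RPKM in the control and 76.4 and 46.1 RPKM after p38-MAPKi (log2 fold change 0.77, limma adjusted p = 0.0201), and its log2 fold change was 0.41 without p38-MAPKi replicate 1. Fads2, a desaturase, held 8.26 and 14.2 against 21.3 and 15.1 RPKM without a call. Outside the lists, and named after their values were seen, Aacs, which turns acetoacetate into a precursor of sterols, rose from 32.4 and 40.6 RPKM to 71.7 and 57.9 RPKM, and Lpin1, a phosphatidate phosphatase of lipid synthesis, rose from 2.74 and 3.14 RPKM to 9.08 and 6.48 RPKM (limma log2 fold changes 0.83 and 1.39, adjusted p = 0.00772 and 7.28e-05).

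**Figure D2:**
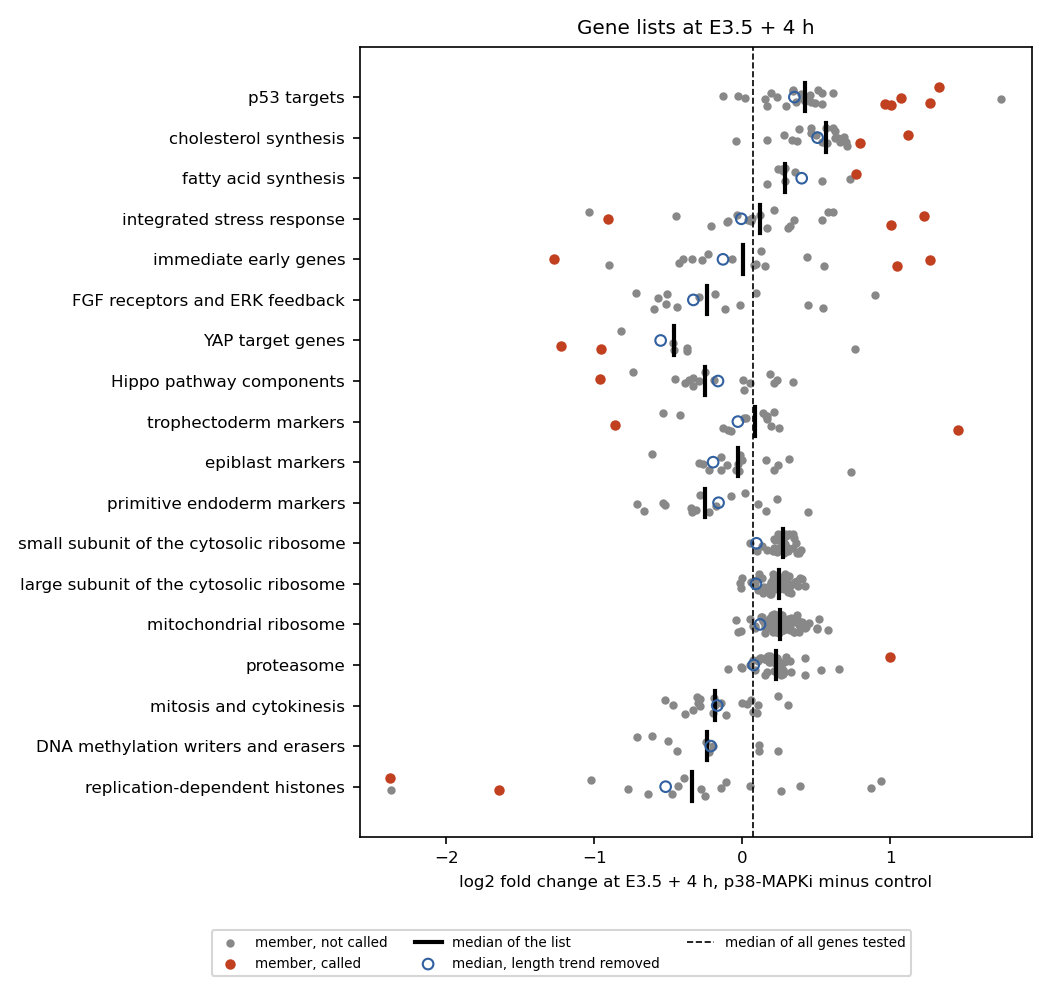
Log2 fold change at E3.5 + 4 h (p38-MAPKi minus control) of the measured members of 18 gene lists, with called members in red, the median of each list as a black bar, its median after removal of the length trend as an open circle, and the median of all genes tested (0.07) as a dashed line. The medians of the cholesterol (0.57) and p53 lists (0.42) keep most of their size without the length trend, whereas those of the ribosomal lists fall to 0.10 and 0.09.

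Transcription factors of the stress response rose, while the list of their usual companions did not move as one. The integrated stress response slows translation and, through ATF4, induces genes of amino acid supply and the factors CHOP and C/EBP. Ddit3, the gene of CHOP, rose 2.34-fold, from 5.29 and 7.42 RPKM to 13.2 and 16.2 RPKM (log2 fold change 1.23, SE 0.23, limma adjusted p = 4.52e-05). Cebpb rose from 2.61 and 4.88 RPKM to 8.47 and 6.06 RPKM (log2 fold change 1.01, SE 0.26, limma adjusted p = 0.0158), with its lower treated library close to the higher control, and without control replicate 1 its log2 fold change was 0.55. Asns, the asparagine synthetase and a standard target of ATF4, fell instead, from 10.5 and 15.4 RPKM to 7.74 and 5.94 RPKM (log2 fold change -0.91, SE 0.23, limma adjusted p = 0.0123). Atf4 itself overlapped between groups (95.4 and 133 against 96.6 and 115 RPKM), as did Trib3 (3.63 and 10.8 against 8.53 and 7.05 RPKM). Of 27 listed genes 21 were measured, and 2 were called higher and 1 lower. The median log2 fold change of the list was 0.12, and -0.09 without control replicate 1. That of all genes went from 0.07 to -0.03 in the same step. Among 22 genes of the unfolded protein response of the endoplasmic reticulum none was called, the median was 0.05, and Hspa5, its main chaperone, held 217 and 258 RPKM in the control and 221 and 252 RPKM after p38-MAPKi.

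The promoter of Asns is printed because the element through which ATF4 and C/EBP factors are known to act, TGATGNAA, lies within it, in a gene that went the other way from Ddit3 and Cebpb. This element (in capitals) began 23 bases before the start (chr6:7693160-7693459, minus strand). It was found in 1.93% of the windows of measured genes, in 0 of 57 windows of higher genes, and in 1 of 19 windows of lower genes (5.26%), that of Asns.
Asns: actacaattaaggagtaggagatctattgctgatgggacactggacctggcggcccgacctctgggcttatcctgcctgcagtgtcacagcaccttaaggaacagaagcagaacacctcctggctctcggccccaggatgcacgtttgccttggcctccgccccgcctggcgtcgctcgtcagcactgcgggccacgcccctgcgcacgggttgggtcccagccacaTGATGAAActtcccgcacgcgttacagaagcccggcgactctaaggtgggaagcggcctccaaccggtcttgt

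Immediate early genes, which growth factor and stress kinases switch on within minutes without new protein synthesis, split in direction. Fos, Egr1, Junb, and others were below the limit, so that 16 of 26 genes were measured. Ier2 rose from 28.2 and 36.4 RPKM to 57.7 and 75.4 RPKM (log2 fold change 1.04, SE 0.20, limma adjusted p = 0.000131), and Btg2, described above, is also on this list. Myc, the growth-promoting transcription factor, fell by 58.6%, from 5.23 and 7.72 RPKM to 2.45 and 2.83 RPKM (log2 fold change -1.27, SE 0.27, limma adjusted p = 0.0011), with both treated libraries far below the controls. Ier3 held 3.83 and 3.78 RPKM in the control and 1.67 and 2.49 RPKM after p38-MAPKi (log2 fold change -0.90, limma adjusted p = 0.165). The median log2 fold change of the list was 0.00.

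FGF signalling through ERK directs the inner cell mass towards PrE, and the ERK pathway induces its own inhibitors, so that their mRNA reports on it. The list held such inhibitors together with FGF receptors and Fgf4, and of its 14 measured genes (17 in the table) none was called. In 7 (50.0%, against 13.7% of all genes) both treated libraries lay below both controls. The 7 include Fgfr2 and Fgf4, which are not inhibitors of this kind. Dusp4, a phosphatase of ERK, held 11.3 and 9.55 RPKM in the control and 6.31 and 6.33 RPKM after p38-MAPKi (log2 fold change -0.72, SE 0.23, limma adjusted p = 0.105). Spry2, an inhibitor of receptor signalling, held 43.5 and 51.7 against 33.8 and 32.8 RPKM, and the receptor gene Fgfr2 12.5 and 14.2 against 9.93 and 7.80 RPKM (limma adjusted p = 0.290 and 0.226). Lower in both treated libraries were also Fgf4, Spry1, Spred2, and Dusp6, whereas Fgfr3, Fgfr4, and Dusp5 were higher in both. The median of the list was -0.24, between -0.42 without control replicate 1 and -0.15 without p38-MAPKi replicate 2.

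The called genes around YAP were lower. YAP and its partner TAZ are coactivators that enter the nucleus when the Hippo kinases LATS1 and LATS2 are silent, bind TEAD factors, and in the TE drive lineage genes, and several of their targets act back on the pathway. Only 8 of 23 listed targets were measured in the blastocysts, and 2 of them were called, both lower, as were 0.288% of all genes. In 5 (62.5%, against 13.7% of all genes) both treated libraries lay below the controls. Amotl2, an angiomotin that holds YAP in the cytoplasm, fell by 57.3%, from 18.97 and 19.6 RPKM to 10.9 and 6.22 RPKM (log2 fold change -1.23, SE 0.22, limma adjusted p = 1.72e-05), with p38-MAPKi replicate 2 the lowest. Ctgf, the most widely used reporter of YAP, fell by 48.4%, from 7.67 and 6.70 RPKM to 3.52 and 3.88 RPKM (log2 fold change -0.96, SE 0.25, limma adjusted p = 0.0255). Lats2 held 4.57 and 4.45 against 2.95 and 2.21 RPKM (log2 fold change -0.82, limma adjusted p = 0.177), and Gadd45a, counted among the targets but also known as a p53 target, went the other way (3.85 and 4.69 against 6.13 and 8.47 RPKM, limma adjusted p = 0.115). The median of the 8 was -0.46, and it was -0.85 without p38-MAPKi replicate 1.

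Among 17 measured components of the Hippo pathway, Trp53bp2, whose protein ASPP2 binds both p53 and YAP, was the called one. It held 33.9 and 33.0 RPKM in the control and 21.3 and 13.8 RPKM after p38-MAPKi (log2 fold change -0.96, SE 0.21, limma adjusted p = 0.0011), so the controls were close together and the treated libraries apart from each other. Yap1 itself overlapped (22.4 and 27.7 against 32.5 and 25.6 RPKM), as did Tead4, the TEAD factor of the TE (35.2 and 38.7 against 43.6 and 31.6 RPKM). Tead1 held 6.97 and 8.11 RPKM in the control and 5.09 and 3.99 RPKM after p38-MAPKi without a call.

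The promoter of Amotl2 is shown as that of the YAP target with the largest difference. It holds the core of the TEAD element, GGAATG, on the other strand, so that the capitals read CATTCC, 65 bases before the start (chr9:102717554-102717853, plus strand). This short sequence is common, and was found in 12.3% of the windows of higher genes, 10.5% of those of lower genes, and 11.9% of those of all measured genes.
Amotl2: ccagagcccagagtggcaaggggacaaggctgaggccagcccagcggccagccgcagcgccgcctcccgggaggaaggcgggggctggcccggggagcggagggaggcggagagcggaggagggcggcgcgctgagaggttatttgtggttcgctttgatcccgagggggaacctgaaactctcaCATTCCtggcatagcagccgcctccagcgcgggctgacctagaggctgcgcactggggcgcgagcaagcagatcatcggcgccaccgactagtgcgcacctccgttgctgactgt

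Markers of the TE and EPI as sets gave no common direction, with single exceptions, and those of the PrE leaned lower, which depended on 1 library. In the TE, 16 of 18 genes were measured, and 1 was called in each direction. Both treated libraries lay above both controls in 5 (31.25%, against 26.8% of all genes) and below in 3 (18.75%, against 13.7%). Hand1, a transcription factor of later trophoblast, rose from 1.26 and 1.67 RPKM to 3.33 and 4.77 RPKM (log2 fold change 1.46, SE 0.33, limma adjusted p = 0.0036). Id2, an inhibitor of basic helix-loop-helix factors that is expressed in the TE, fell by 44.8% with almost no spread, from 72.0 and 72.4 RPKM to 39.2 and 40.7 RPKM (log2 fold change -0.86, SE 0.20, limma adjusted p = 0.00485). The TE factors Cdx2 (195 and 219 against 151 and 158 RPKM) and Gata3 (92.1 and 101 against 62.5 and 70.7 RPKM) were also below the controls in both treated libraries, short of a call (limma adjusted p = 0.490 and 0.227). The keratins of the TE were not, with Krt8 at 477 and 509 RPKM in the control and 571 and 572 RPKM after p38-MAPKi. The summed level of the TE list was 2240 and 2446 RPKM in the control and 2394 and 2451 RPKM after p38-MAPKi.

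In the EPI list (17 of 18 measured) and the PrE list (16 of 20) no gene was called. Nanog overlapped between the groups (131 and 141 against 109 and 139 RPKM), as did the PrE factors Gata4 (1.15 and 1.85 against 1.92 and 1.54 RPKM) and Sox17. Among the 16 measured PrE markers, 5 were below the controls in both treated libraries (31.25%, against 13.7% of all genes). None was above them (0%, against 26.8%). The 5 were the receptor gene Pdgfra (6.41 and 8.57 against 6.09 and 4.36 RPKM), the endocytic receptor Lrp2 (76.8 and 75.9 against 64.0 and 36.4 RPKM, limma adjusted p = 0.0702), its adaptor Dab2, and the laminins Lama1 and Lamb1. The measured PrE markers had a median length of 6980.5 bases. Among the 2156 longest of all measured genes (6871 bases and over), 26.2% lay below both controls in both treated libraries and 10.8% above. The list median moved with 1 library: it was -0.25, and it was -0.60 without p38-MAPKi replicate 1 and 0.16 without p38-MAPKi replicate 2. Among 18 genes of tight and adherens junctions, Cldn3, a claudin, rose from 8.78 and 9.18 RPKM to 20.2 and 17.4 RPKM (log2 fold change 1.06, SE 0.22, limma adjusted p = 0.000464), and no other was called.

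Of the genes of glucose sensing and glycolysis 21 were measured and 2 were called, both members of the arrestin family that restrain glucose uptake. Txnip held 5.77 and 12.5 RPKM in the control and 15.3 and 16.3 RPKM after p38-MAPKi (log2 fold change 0.89, SE 0.22, limma adjusted p = 0.0106), and Arrdc4 held 0.883 and 2.79 against 4.12 and 3.53 RPKM (log2 fold change 1.28, SE 0.33, limma adjusted p = 0.0188). In both, control replicate 1 was the lowest library, and without it the log2 fold changes were 0.33 and 0.45. Hk2, a hexokinase, lay on the other side (36.8 and 41.3 against 25.6 and 22.3 RPKM, log2 fold change -0.71, limma adjusted p = 0.0520). Slc6a14, an X-linked transporter of amino acids, fell from 6.97 and 9.57 RPKM to 5.26 and 3.77 RPKM (log2 fold change -0.87, SE 0.25, limma adjusted p = 0.0418), as 1 of 15 measured transporters. Pomc, the precursor of pituitary peptide hormones, rose from 1.91 and 1.62 RPKM to 2.81 and 5.55 RPKM (log2 fold change 1.17, limma adjusted p = 0.0365), and without p38-MAPKi replicate 2 its log2 fold change was 0.67.

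The other large rises among genes expressed above the median (8.20 RPKM) were those of Btbd19 (5.83 and 6.53 to 14.4 and 11.9 RPKM), Plau, the urokinase plasminogen activator (7.39 and 6.92 to 14.1 and 15.6 RPKM), Pold4, a subunit of DNA polymerase delta (7.97 and 7.28 to 15.1 and 14.2 RPKM), and Ddit4l, an inhibitor of mTOR signalling (8.32 and 9.69 to 15.9 and 18.7 RPKM). Their log2 fold changes were 1.09, 1.05, 0.94, and 0.94. Among low genes, predicted genes and clone names left aside, the largest were those of Tekt2, a protein of cilia (0.523 and 0.144 to 1.49 and 1.53 RPKM, from 17 and 5 to 69 and 63 reads), the peptide gene Edn2 (0.240 and 1.05 to 1.77 and 3.13 RPKM), the receptor gene Rtn4r (0.272 and 1.07 to 1.87 and 2.20 RPKM), and Gpr20 (0.928 and 1.71 to 6.29 and 3.11 RPKM). In Edn2 and Rtn4r the higher control was within reach of the lower treated library, and without control replicate 1 their log2 fold changes went from 2.23 to 1.17 and from 1.91 to 0.91. On the lower side stood Zfp568, a KRAB zinc finger repressor (25.3 and 25.3 to 16.6 and 11.2 RPKM, log2 fold change -0.89), Ahnak, a giant scaffold protein (17.1 and 16.8 to 13.8 and 7.06 RPKM, -0.78), and at a low level Epo (2.39 and 2.88 to 1.49 and 0.541 RPKM, -1.55). For Ahnak and Epo p38-MAPKi replicate 2 gave most of the difference, and without it the log2 fold changes were -0.30 and -0.82.

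Xist, the RNA that coats and silences the inactive X chromosome of female cells, fell by 52.0%, from 40.8 and 38.5 RPKM to 20.5 and 17.6 RPKM (log2 fold change -1.06, SE 0.20, limma adjusted p = 0.000136). Both measured Y-linked genes were higher in both treated libraries, Eif2s3y at 8.32 and 9.76 against 13.0 and 11.5 RPKM and Ddx3y at 6.90 and 9.69 against 10.4 and 10.5 RPKM, neither with a call (limma adjusted p = 0.523 and 0.662). Of the 31 lower genes, 4 were X-linked (Xist, Usp9x, Atrx, and Slc6a14, of which Atrx was named after its values were seen). Of the 67 higher genes none was, and X-linked genes made up 3.07% of all measured genes. Xist, Usp9x, and Atrx are also long (17923, 15051, and 21757 bases). Among measured genes of 6871 bases and over, 26.2% lay below both controls in both treated libraries. Among all 331 measured X-linked genes the median log2 fold change was -0.10, and 101 of them (30.5%, against 13.7% of all genes) lay below the controls in both treated libraries. The sex of the embryos in a pool is not recorded, so the share of female embryos and the level of Xist in each of them cannot be told apart. At 7 h the log2 fold change was -0.70 for Xist, -0.56 for Eif2s3y, and -0.52 for Ddx3y, and at 10 h that of Xist was 0.43. Usp9x, an X-linked deubiquitinase, held 9.34 and 10.6 RPKM in the control and 7.80 and 2.50 RPKM after p38-MAPKi, and without p38-MAPKi replicate 2 its log2 fold change was -0.35.

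Genes for the translation machinery lay slightly higher without a call, and were near the level of all genes without p38-MAPKi replicate 2. In the small subunit of the cytosolic ribosome, all 32 genes were measured, and the median log2 fold change was 0.27. Of them 17 were above the controls in both treated libraries (53.1%, against 26.8% of all genes). In the large subunit 47 genes were measured, 23 were above (48.9%), and the median was 0.25. These numbers were 78, 43 (55.1%), and 0.26 in the mitochondrial ribosome, and 36, 15 (41.7%), and 0.22 in respiratory complex I. The proteasome was similar (46 measured, 24 or 52.2% above, median 0.22), and held a call for Psmb10, a catalytic subunit of the immunoproteasome (3.499 and 3.66 against 5.88 and 8.65 RPKM, limma adjusted p = 0.0185).

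These are short genes, and length moved with the comparison. When the 10781 genes were split by length into 5 groups of equal size, the median log2 fold change went from 0.21 in the shortest through 0.16, 0.08, and 0.02 to -0.13 in the longest, and the median difference between p38-MAPKi replicates 2 and 1 went from 0.24 to -0.34 over the same groups, while that between controls stayed between 0.15 and 0.20. The ribosomal medians were 0.49 and 0.48 without p38-MAPKi replicate 1, 0.08 and 0.04 without p38-MAPKi replicate 2, and 0.10 and 0.09 with the length trend removed. The medians of all genes under these settings were 0.05, 0.09, and 0.01. Without p38-MAPKi replicate 1, without p38-MAPKi replicate 2, and with the length trend removed, the medians were 0.42, 0.10, and 0.12 for the mitochondrial ribosome, 0.41, 0.03, and 0.06 for complex I, and 0.38, 0.08, and 0.08 for the proteasome. The median length of the called genes was 1900 bases for the higher and 1745 for the lower, against 3928 for all genes, while the p53 targets (3512) and the cholesterol genes (4321) were near the latter.

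**Figure D3:**
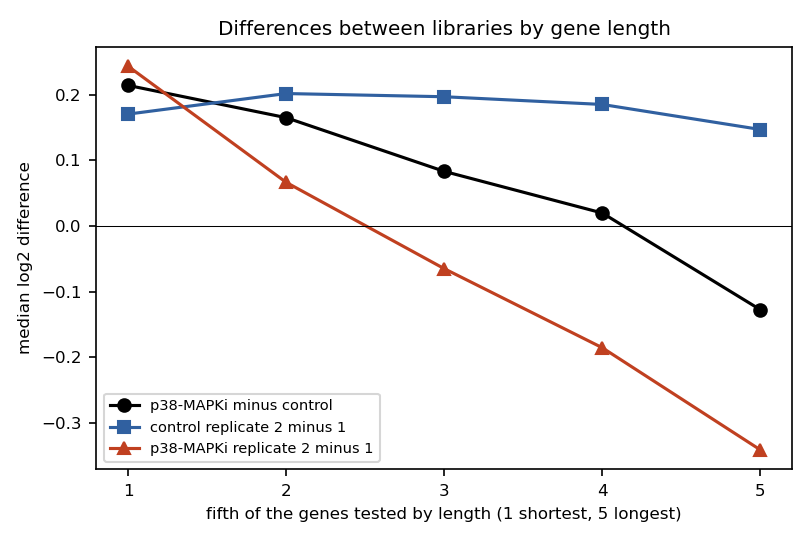
Median log2 difference over the genes tested, in 5 groups by gene length from shortest to longest, between p38-MAPKi and control (black circles), between the control replicates (blue squares), and between the p38-MAPKi replicates (red triangles). The difference between treatments runs from 0.21 to -0.13 and that between the p38-MAPKi replicates from 0.24 to -0.34, whereas the control replicates differ by 0.15 to 0.20 at every length.

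Some genes of mitosis, cytokinesis, and DNA methylation were below both controls, without a call. Of 21 genes of mitosis and cytokinesis, with a median of -0.18, 6 were lower in both treated libraries (28.6%, against 13.7% of all genes) and 3 higher. Among the lower were Anln (18.7 and 21.5 against 18.4 and 11.4 RPKM) and Ect2 (12.5 and 13.4 against 10.3 and 7.94 RPKM). Of 10 writers and erasers of DNA methylation, with a median of -0.24, 4 were lower in both (40%) and none higher. Among the lower were the demethylase gene Tet2 (24.0 and 24.1 against 19.4 and 11.1 RPKM, limma adjusted p = 0.0612) and the methyltransferase gene Dnmt3b (25.96 and 29.2 against 22.6 and 16.7 RPKM). In all of these p38-MAPKi replicate 2 was the lowest library. With the length trend removed the medians of these lists were -0.17 and -0.21. They were -0.04 and -0.10 without p38-MAPKi replicate 2, and -0.05 and -0.08 without control replicate 2. Under these settings, in the same order, the median of all genes was 0.01, 0.09, and 0.16.

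Some calls concerned genes in which 1 library stood far apart, among them non-coding RNAs and histone mRNAs that lack a normal poly(A) tail. Lars2, named as the mitochondrial leucyl-tRNA synthetase, held 297 and 65.6 RPKM in the control and 44.0 and 54.2 RPKM after p38-MAPKi (log2 fold change -1.51, limma adjusted p = 1.92e-10), and without control replicate 1 its log2 fold change was -0.42. It was the called one of 37 aminoacyl-tRNA synthetases, whose median was 0.08. Gm15564, a predicted gene, held 743 and 268 RPKM in the control and 92.9 and 104 RPKM after p38-MAPKi (log2 fold change -2.18). Control replicate 1 was also the high library for the called genes Gm42418, Rpph1 (71.5 RPKM against 4.29 to 10.6 RPKM in the others), and Rmrp (117 against 17.2 to 31.4 RPKM), the last 2 being the RNA parts of RNase P and RNase MRP. In these 3 genes, in the histone gene Hist1h4b (3.98 and 2.48 against 0.310 and 3.26 RPKM), and in the predicted gene Gm23119 (2.51 and 0.352 against 4.40 and 2.31 RPKM), treated and control libraries overlapped, although the genes were called, 4 lower and Gm23119 higher. These 5 were the only called genes with overlap.

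Of 67 replication-dependent histone genes, whose mRNA normally ends without a poly(A) tail, 18 were measured and 2 were called lower, Hist1h4b and Hist1h2ak. Hist1h2ak fell by 80.7%, from 4.17 and 2.79 RPKM (28 and 20 reads) to 0.523 and 0.824 RPKM (5 and 7 reads), with a log2 fold change of -2.38 (SE 0.42, limma adjusted p = 1.63e-05). Hist1h2bb was similar at a lower level, with 1.27 and 1.40 against 0.243 and 0.273 RPKM and no call. The list median of -0.34 was 0.02 without control replicate 1, -0.82 without control replicate 2, 0.24 without p38-MAPKi replicate 1, and -0.89 without p38-MAPKi replicate 2.

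The libraries of 7 h and 10 h, which share no sample with those of 4 h, were used to see where the called genes stood later. At 7 h, 61 of the 67 higher genes had a log2 fold change above 0, where 39.3% of all measured genes had, and 39 of these had an unadjusted limma p under 0.05, a level that 28.5% of all genes reached in either direction. At 10 h, 55 were above 0, where 45.3% of all genes were, and 26 had such a p (19.8% of all genes). The median of the 67 was 1.07 at 4 h, 0.73 at 7 h, and 0.31 at 10 h, and 45 of them had at 10 h under 0.5 times their size at 4 h. Of the 31 lower genes, 22 were below 0 at 7 h and 24 at 10 h, where 60.7% and 54.7% of all genes were, 18 and 9 of them with an unadjusted limma p under 0.05, and their median went from -1.24 through -0.86 to -0.24.

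The later levels of a few genes are given side by side. Ddit3 lay above both controls at 7 h (8.18 and 6.47 RPKM in the control against 21.6 and 18.9 RPKM) and at 10 h (6.38 and 7.596 against 12.2 and 10.98 RPKM). Mvd held 65.5 and 103 RPKM in the control and 70.4 and 108 RPKM after p38-MAPKi at 10 h, where the groups overlapped. Amotl2 lay below both controls at 7 h (25.7 and 24.7 against 9.07 and 7.11 RPKM) and at 10 h (27.1 and 30.9 against 23.1 and 21.5 RPKM). Pomc held 8.57 and 6.79 RPKM at 7 h against 2.05 and 2.60 RPKM in the control, and Edn2 was at 0.0548 and 1.452 RPKM against 0.616 and 0.820 RPKM, where the groups overlapped. The list medians of p53 targets were 0.42, 0.23, and 0.26 at 4, 7, and 10 h, those of cholesterol synthesis 0.57, 0.30, and 0.09, and those of YAP targets -0.46, -0.85, and -0.16.

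Whether an effect at 4 h differed from that at a later time was tested as an interaction in the 8 libraries of both times. Against 7 h, 1 gene of 10781 passed in limma (0.00928%), and 746 had an unadjusted p under 0.05. This was Hist1h2ak, which at 7 h held 0.241 and 0.327 RPKM in the control and 2.72 and 2.19 RPKM after p38-MAPKi (log2 fold change 3.12). Its effect at 4 h was 5.50 lower than that at 7 h on the log2 scale (SE 0.69, limma adjusted p = 0.0309), and the control libraries of the 2 times differed more than the treated ones. Against 10 h, 0 genes passed in limma (0%), with 1065 at an unadjusted p under 0.05. For the other called genes a difference in size between times was thus not shown, and the values above are given side by side.

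**Figure D4:**
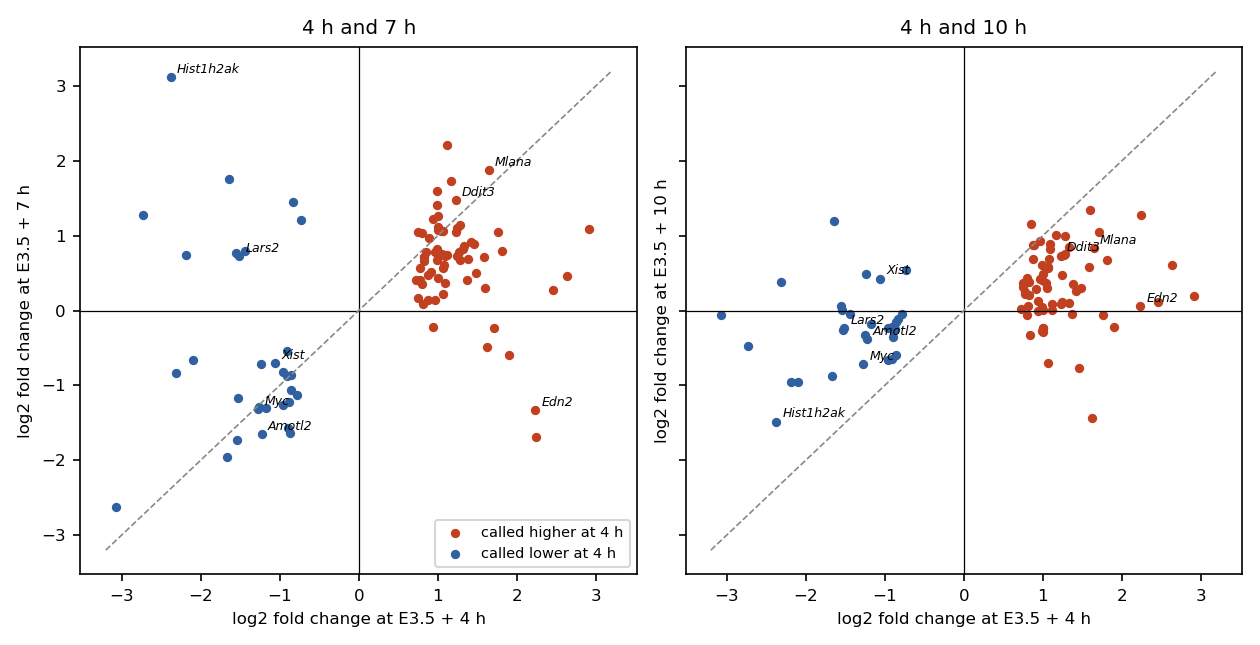
Log2 fold change (p38-MAPKi minus control) at E3.5 + 4 h on the horizontal axis against that at E3.5 + 7 h (left) and E3.5 + 10 h (right) for the 98 genes called at 4 h (red, higher; blue, lower), with equal values on the dashed line. At 7 h, 61 of 67 red points lie above 0 and 22 of 31 blue points below 0, Hist1h2ak being far off at 3.12, and at 10 h the points are nearer to 0.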

How the data were processed

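The mRNA of 12 pools of blastocysts was sequenced from one end after poly(A) selection with a directional kit. According to the processing notes, reads were trimmed with Trim Galore 0.4.1 and mapped to GRCm38 with HISAT2 2.0.5. The authors counted reads per gene in SeqMonk and deposited log2 RPKM for 34245 genes, with each library in its own column. Whether strand was used in counting and how reads with several matches were treated is not given in the sources used here. Genes with no read are listed at what 0.9 of a read would give, from which followed the total of each library (11242313 to 24457311 reads) and whole reads for all 34245 genes within 0.05 of a read, and 12527 genes had no read at all.

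The deposited log2 values were fitted without a pseudocount by limma 3.58.1 (lmFit, eBayes with trend) in R 4.3.3 on the 4 libraries of E3.5 + 4 h, over genes of at least 1 RPKM in at least 2, with Benjamini-Hochberg adjustment at 0.05. Interactions used the 8 libraries of 2 time points. Scripts were tested on simulated data. Alternatives were limma without the trend, robust eBayes, median centring, removal of a loess trend on length, other filters and pseudocounts of 0.1 and 1 RPKM, 12 libraries in one fit, voom on the recovered reads, the replicate number as a block, and leaving out each library. The replicate numbers were not taken to pair pools.

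The members of each list, the comparison, and the tests were chosen with earlier results of these data known. Named genes are the 12 largest rises and falls among called genes above the median level whose libraries did not overlap, the 4 largest on each side below it, every called list member, up to 4 members of each list with the largest differences together with members that define a role, called genes with overlapping libraries, and genes called in an interaction. Predicted genes and clone names were counted, and were passed over in the naming unless a sentence turned on them. No set test was run. Gene positions and lengths are from GENCODE M21, matched for 31866 genes by symbol and chromosome. Python 3.11.15, numpy 2.4.6, pandas 2.3.3, and matplotlib 3.10.9 served for summaries and plots. Values of some single genes are not reported here.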

Additional observations from a re-analysis of the deposited data

Results flagged for a closer look

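The effect of p38-MAPKi on Hist1h2ak at E3.5 + 4 h minus that at E3.5 + 7 h was -5.50 on the log2 scale, and this difference passed limma's interaction test (adjusted p = 0.0309). The gene was lower after p38-MAPKi in 2 of 2 pools at 4 h and higher in 2 of 2 pools at 7 h, from at most 28 reads in a library at 4 h. With 2 pools per group no pool could be tested for standing apart from the others of its group.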

How the results depend on the processing

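Of the 98 genes called at E3.5 + 4 h, 95 kept their direction in every alternative in which they were tested. This was largely fixed in advance. Limma without the trend, robust eBayes, no filter, the replicate block, and the fit of 12 libraries left the log2 fold change unchanged. Leaving out 1 library could not reverse a gene whose libraries did not overlap. Called in at least 9 of the 15 alternatives were 10 genes (Gm15564, Phlda3, Ier2, Bbc3, Btbd19, Mvd, Ddit3, Btg2, Plk2, and Xist). The number of calls in limma was 11 without the trend (6 higher, 5 lower), of which 5 were among the 98. Plk2, Btg2, Mvd, and Ddit3 were not called without the trend (limma adjusted p = 0.099, 0.103, 0.115, and 0.123). The number was 36 of the 4976 genes with at least 10 RPKM (25 higher, 11 lower). It was 34 with voom on the recovered reads (20 and 14, 33 of them among the 98). It was 0 (0 higher, 0 lower) with median centring, without the length trend, without the filter, or in the fit of 12 libraries. Leaving out 1 library gave 6 to 412 calls, 3 to 206 higher and 3 to 206 lower. It gave 102 with robust eBayes and 103 and 115 with a pseudocount. Without 1 library, the log2 fold change of Rmrp lay between -2.11 and 0.66, that of Rpph1 between -2.86 and 1.20 (both highest without control replicate 1), and that of Hist1h4b between -3.34 and 0.054 (highest without p38-MAPKi replicate 1).

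With a replicate block 75 genes were called at 4 h (49 higher, 26 lower). Replicates of the same number did not deviate together (correlation over genes -0.012, 2 pairs). This 1 correlation cannot show whether they came from the same mating or day, which is not stated. The interaction with 7 h passed for 0 genes with median centring, without the length trend, or in the fit of 12 libraries, for 5 with the replicate block, and for 0 to 314 without 1 library. That with 10 h passed for 0 to 677 without 1 library, 677 being without p38-MAPKi replicate 1 of 4 h, and for 0 otherwise. The cause of these changes was not tested. With 2 pools per group and no spiked-in RNA, small differences and changes of total mRNA cannot be read from these data.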
